A study of Mus musculus with 8 samples.

Results

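Genes of hepatic glucose handling, 9 of the 55385 in the deposited table, were followed in livers of fasted mice in which *Usp39* was deleted in hepatocytes. They were named one by one for their role: *Pck1*, *G6pc*, *Fbp1* and *Pcx* of gluconeogenesis, *Pklr* of glycolysis, *Pdk4* of the pyruvate switch, *Irs2* and *Foxo1* of insulin signalling, and the glucose transporter *Slc2a2*. RNA-seq was done on whole liver from 4 *Usp39*-HKO mice and 4 control littermates, all male, 5 weeks old and fasted for 16 h. The *Usp39*-HKO mice carried loxP sites around exon 2 of both *Usp39* alleles together with Cre under the Albumin promoter, which drives recombination in hepatocytes, on a C57BL/6J background, and the labels call the controls wild type. Each library came from 1 mouse, none were pooled, and every animal was fasted, so no fed liver was available for comparison. *Usp39* encodes a component of the spliceosome, and the study sequenced these livers to see what its loss does to hepatic transcripts.

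During a fast the liver releases glucose that it makes from lactate, glycerol and amino acids. Pyruvate carboxylase (*Pcx*) turns pyruvate into oxaloacetate, phosphoenolpyruvate carboxykinase (*Pck1*) turns oxaloacetate into phosphoenolpyruvate, fructose-1,6-bisphosphatase (*Fbp1*) removes a phosphate further up, and glucose-6-phosphatase (*G6pc*) frees the glucose, while liver pyruvate kinase (*Pklr*) runs the opposing glycolytic step. Glucagon and glucocorticoid promote this programme in a fast, and insulin restrains it through *Irs2*, Akt and the transcription factor *Foxo1*.

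Of the 9 genes, 5 differed between genotypes, 1 higher and 4 lower in *Usp39*-HKO livers. *Pdk4* rose 3.89-fold, and *Pcx*, *Pck1*, *Pklr* and *Fbp1* fell, whereas *G6pc*, *Irs2*, *Slc2a2* and *Foxo1* did not pass the test. A gene is called here when its adjusted p was under 0.05 in the edgeR quasi-likelihood test on counts, with two-sided p-values and Benjamini-Hochberg adjustment across the 14340 genes tested, which include all 9. Over all tested genes 22.5% were called, 10.9% higher and 11.6% lower. The cutoff of the study, which asks for an unadjusted p below 0.05 together with a log2 fold change beyond 0.5 in either direction, marked 1 of the 9 genes as higher and 3 as lower, against 12.1% and 9.62% of all tested genes and 21.7% in both directions. Log2 fold changes of 8 of the 9 genes were below 0, with a median of -0.45, while the median over all tested genes was -0.0015. Levels are given as FPKM, fragments scaled to exon length and to the total of the liver, and on this scale the genotypes did not overlap in 4 of the 9 genes, against 28.7% of all tested genes.

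All 9 genes had a start among the RefSeq promoter sequences (GRCm38.p6), with 11 windows from 250 bases before to 50 bases after a start. The 250 bases before the start are shown for the leading gluconeogenic genes *Pck1*, *G6pc* and *Fbp1*, and for *Pdk4*, the 1 gene that rose, because the first and the last moved in opposite directions. They lie at chr2:173152823-173153072 (plus strand), chr11:101367466-101367715 (plus), chr13:62888283-62888532 (minus) and chr6:5496279-5496528 (minus). Capitals mark matches to any of 7 motifs on either strand.
Pck1: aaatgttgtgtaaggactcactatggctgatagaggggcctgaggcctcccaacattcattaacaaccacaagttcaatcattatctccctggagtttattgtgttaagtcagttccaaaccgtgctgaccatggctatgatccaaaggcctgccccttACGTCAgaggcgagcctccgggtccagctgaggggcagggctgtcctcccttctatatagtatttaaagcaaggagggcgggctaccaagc
G6pc: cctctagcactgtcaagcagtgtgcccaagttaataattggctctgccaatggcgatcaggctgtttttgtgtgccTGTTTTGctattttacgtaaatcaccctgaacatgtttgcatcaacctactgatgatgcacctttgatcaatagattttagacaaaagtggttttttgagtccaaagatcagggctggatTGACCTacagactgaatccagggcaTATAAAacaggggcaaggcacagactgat
Fbp1: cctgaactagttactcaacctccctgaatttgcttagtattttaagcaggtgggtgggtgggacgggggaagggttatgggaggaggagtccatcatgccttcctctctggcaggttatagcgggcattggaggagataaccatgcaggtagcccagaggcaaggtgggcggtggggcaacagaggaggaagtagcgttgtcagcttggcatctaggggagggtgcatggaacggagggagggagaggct
Pdk4: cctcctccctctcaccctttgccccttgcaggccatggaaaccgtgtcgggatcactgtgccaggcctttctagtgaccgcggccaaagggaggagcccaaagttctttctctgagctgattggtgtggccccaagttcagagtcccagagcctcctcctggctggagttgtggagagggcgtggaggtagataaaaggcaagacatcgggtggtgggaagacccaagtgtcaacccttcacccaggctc

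The first motif searched was TGACGT, the core of the cAMP response element. Forkhead factors such as *Foxo1* were represented by CAAAACA, the insulin response form, as well as by GTAAACA, the general form. E-box letters were CACGTG, the palindrome, as well as CACGGG, a variant of it. The last motifs were TATAAA, the TATA box, followed by AGGTCA, the unit that nuclear receptors bind. Positions are those of the leftmost base as printed, counted from -1 just before the start. Matches were in 8 of the 11 windows and 6 of the 9 genes, and no match overlapped another. In *Pck1* the only match was TGACGT on the minus strand, at -91, and 7.51% of 32851 promoters of the same length held these letters. *G6pc* had CAAAACA on the minus strand at -174 (6.28% of promoters), AGGTCA on the minus strand at -54 (16.3%), TATAAA at -29 (13.6%) and CACGGG at 38 (10.1%). The first window of *Pklr* held AGGTCA on the minus strand at -151. In the second window of *Pklr*, CACGGG stood at -170 and on the minus strand at -159, with TATAAA at -31. *Irs2* held CAAAACA on the minus strand at -37, next to the palindrome CACGTG at -44 (7.15% of promoters), with the variant CACGGG on the minus strand at -153. *Pcx* held CACGTG in 1 window and AGGTCA in the other, and *Slc2a2* held AGGTCA. None of the 7 motifs, GTAAACA (3.65%) included, was found in the windows of *Fbp1*, *Pdk4* and *Foxo1*, which says only that these letters were not there.

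In GENCODE vM21 on GRCm38, the assembly known as mm10, all 9 are protein-coding genes. *Pck1* (ENSMUSG00000027513) lies at chr2:173153048-173159273, *G6pc* (ENSMUSG00000078650) at chr11:101367561-101377903, *Pcx* (ENSMUSG00000024892) at chr19:4510472-4621752, *Pklr* (ENSMUSG00000041237) at chr3:89136142-89146784, *Slc2a2* (ENSMUSG00000027690) at chr3:28697903-28731359 and *Foxo1* (ENSMUSG00000044167) at chr3:52268336-52353221, all on the plus strand. On the minus strand lie *Fbp1* (ENSMUSG00000069805) at chr13:62864753-62888282, *Pdk4* (ENSMUSG00000019577) at chr6:5483351-5496309 and *Irs2* (ENSMUSG00000038894) at chr8:10984681-11008458. These gene ends can differ from the RefSeq starts used for motif positions, as for *Pck1*, *G6pc*, *Pdk4* and *Irs2*. Some bases shown before a start therefore lie inside the gene as GENCODE draws it. Values cover all exons of a gene. For *Pklr*, 22.0% of exon bases overlap exons of *Hcn3* on the opposite strand, and for *Foxo1* 7.78% overlap *Gm20402*. The use of strand in counting is not given in the sources used here, so reads from such partners cannot be told apart.

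Total counts were between 8589636 and 10418450 per liver, at which 3 counts equal 0.288 to 0.349 CPM, that is, counts relative to the library total, a floor that covers counting error only. The 9 genes were well above it, the thinnest being *Pklr* with 345 to 648 counts per liver. *Usp39* itself, the targeted gene, was listed at 8.76 to 10.4 FPKM in controls against 8.07 to 8.7 in *Usp39*-HKO livers and fell by 0.41 on the log2 scale (edgeR, SE 0.11, adjusted p = 0.0212), which is a whole-gene value over all cells of the liver. The summed hepatocyte markers, *Alb* and 7 others, overlapped between controls (17500 to 19800 FPKM) and *Usp39*-HKO livers (16200 to 20700), with 0 of 8 called higher and 3 lower. Sums did not overlap and were higher in *Usp39*-HKO livers for cholangiocyte markers (26.7 to 29.0 against 65.2 to 289 FPKM, 5 of 5 tested genes higher), stellate cell markers (62.3 to 71.9 against 104 to 196, 6 of 6), macrophage markers (194 to 277 against 342 to 547, 5 of 6), lymphocyte markers (5.98 to 6.80 against 7.37 to 9.94, 1 of 5) and proliferation genes (11.0 to 15.7 against 27.9 to 38.4, 5 of 6). Endothelial sums overlapped (97.5 to 109 against 102 to 106, 2 of 6 lower), and erythroid sums were lower (369 to 772 against 155 to 365, 5 of 5 tested genes lower). The sums are of FPKM without the scaling factors between livers that the calls use. Those factors lower *Usp39*-HKO values relative to controls. Overlap or its absence may therefore change with them where ranges lie close, as for endothelial and lymphocyte sums, and this was not tested. In bulk liver, fewer cells of a type and less RNA per cell cannot be told apart, and the part of these marker levels in the results that follow was not tested. Control 4 stood apart with 577 FPKM of summed pancreatic acinar markers, against 2.92 to 4.97 in the other 7 livers, and without it 3 of the 9 genes were called, *Pdk4*, *Pcx* and *Pck1*, among 2038 of all tested genes.

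**Figure D1:**
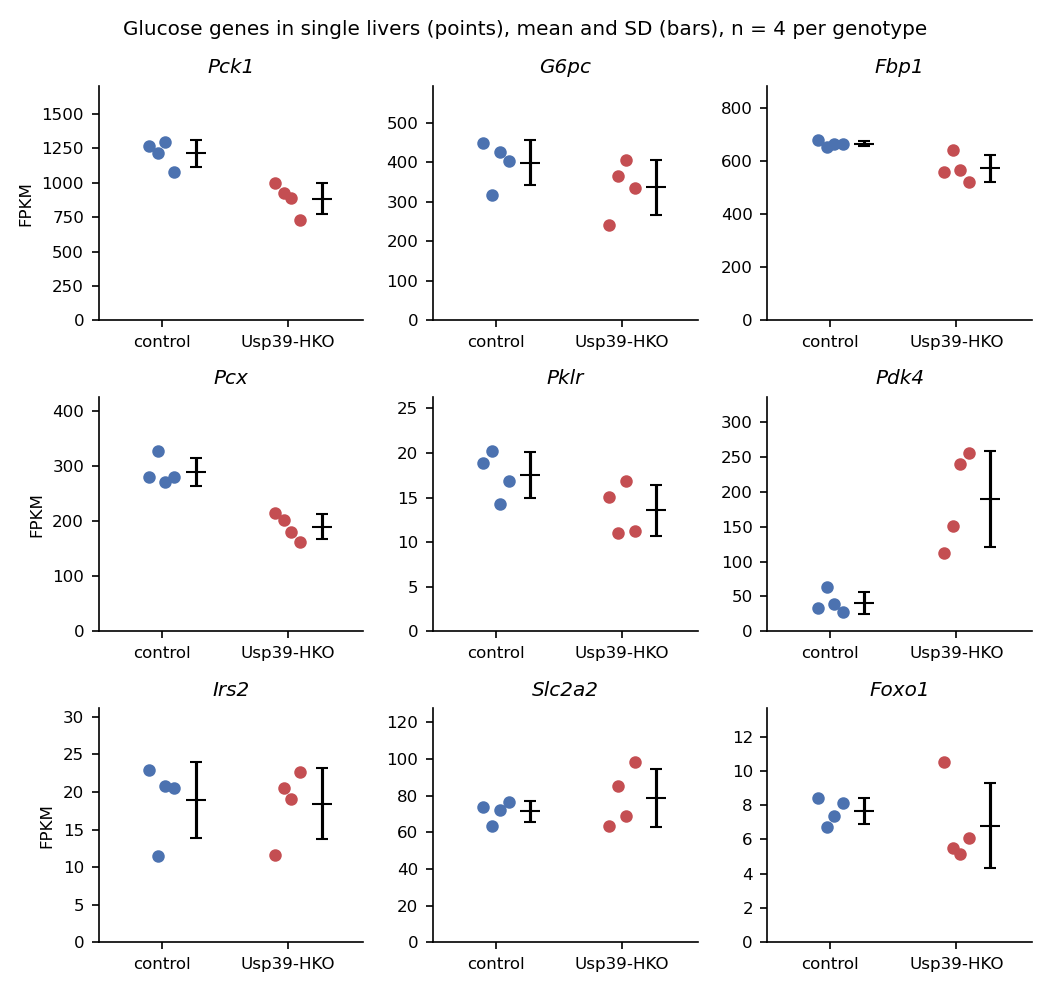
FPKM of the 9 genes in each liver (points; blue, 4 control; red, 4 Usp39-HKO), with the mean and SD of each genotype as black bars and every vertical axis from 0. Pdk4 was above all controls in each Usp39-HKO liver, Pck1, Fbp1 and Pcx were below all controls, and the other 5 genes overlapped.

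*Pck1*, the rate-setting enzyme of gluconeogenesis from pyruvate, was the most abundant of the 9 genes in both genotypes. It was listed at 1268, 1214, 1296 and 1079 FPKM in control livers 1 to 4 and at 999, 924, 891 and 727 FPKM in *Usp39*-HKO livers 1 to 4. Every *Usp39*-HKO liver was thus below the lowest control, and *Usp39*-HKO 4 was the lowest of all. The control mean of 1214 ± 96.2 FPKM compared with 885 ± 115 after deletion (SD, n = 4 each; exact permutation test, two-sided, p = 0.0286, which is the lowest value that 70 assignments of 8 livers allow). In edgeR *Pck1* fell by 0.68 on the log2 scale (SE 0.17, 95% confidence interval -1.05 to -0.31, adjusted p = 0.0144), and over 16 alternatives the adjusted p ran up to 0.0495 in edgeR.

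*Pcx*, the mitochondrial enzyme that feeds pyruvate into the pathway, had the largest fall of the 9 genes. Control livers 1 to 4 had 280.3, 327, 270.4 and 279 FPKM, and *Usp39*-HKO livers had 215, 202, 181 and 163 FPKM. The genotypes did not overlap, with means of 289 ± 25.4 and 190 ± 23.0 FPKM (SD, n = 4 each; two-sided exact permutation test, p = 0.0286). The log2 fold change in edgeR was -0.83 (SE 0.15, 95% confidence interval -1.16 to -0.50, adjusted p = 0.00353).

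*Fbp1*, which turns fructose-1,6-bisphosphate into fructose-6-phosphate, was nearly level among controls at 678, 652, 663 and 665 FPKM. *Usp39*-HKO livers had 558, 642, 565 and 522 FPKM, all below the controls, although *Usp39*-HKO 2 lay close to the lowest of them. *Fbp1* fell by 0.45 on the log2 scale (edgeR, SE 0.12, 95% confidence interval -0.72 to -0.18, adjusted p = 0.0244). This call was less firm than those of *Pck1* and *Pcx*: without control 1, 3 or 4 or *Usp39*-HKO 3 or 4 the edgeR adjusted p was 0.0651, 0.0679, 0.0592, 0.0615 and 0.0511, in that order, and without scaling factors the fall was 0.21 (edgeR, adjusted p = 0.147).

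*G6pc*, whose product releases free glucose into the blood, had 449, 318, 426 and 405 FPKM in controls and 240.2, 365, 405 and 335 FPKM in *Usp39*-HKO livers. The genotypes overlapped, control 2 being the lowest control and *Usp39*-HKO 1 the lowest of all livers. Mean FPKM was 399 ± 56.9 and 336 ± 70.3 (SD, n = 4 each; two-sided exact permutation test, p = 0.257). The log2 fold change was -0.49 (edgeR, SE 0.17, 95% confidence interval -0.86 to -0.12, adjusted p = 0.0588), so *G6pc* narrowly missed the call. It passed in DESeq2 (adjusted p = 0.0242), in edgeR without a filter on low values (adjusted p = 0.034), and in edgeR without control 2 (adjusted p = 0.033) or *Usp39*-HKO 3 (adjusted p = 0.0414).

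*Pklr*, the liver pyruvate kinase that works against *Pck1* and *Pcx*, had 18.9, 20.2, 14.3 and 16.8 FPKM in controls and 15.1, 11.0, 16.8 and 11.2 FPKM in *Usp39*-HKO livers. The genotypes overlapped, since *Usp39*-HKO 1 and 3 were above control 3. *Pklr* fell by 0.60 on the log2 scale (edgeR, SE 0.18, 95% confidence interval -0.98 to -0.21, adjusted p = 0.0316), but the call was lost in 9 of 16 alternatives. Without control 1, 2 or 4 or *Usp39*-HKO 2 or 4 the edgeR adjusted p was 0.0806, 0.071, 0.0608, 0.078 and 0.0889, in that order. Within each liver the log2 ratio of *Pck1* to *Pklr* overlapped between genotypes, at 5.91 to 6.50 in controls against 5.73 to 6.39 in *Usp39*-HKO livers, with means of 6.12 ± 0.26 and 6.04 ± 0.27 (SD, n = 4 each).

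*Pdk4*, a kinase that phosphorylates pyruvate dehydrogenase and so spares pyruvate in a fast, was the 1 gene of the 9 that rose. Control livers 1 to 4 had 33.6, 63.0, 39.0 and 27.8 FPKM, and *Usp39*-HKO livers had 112, 151, 239 and 255 FPKM. The lowest *Usp39*-HKO liver was above the highest control, and among the *Usp39*-HKO livers 3 and 4 stood above 1 and 2. Means were 40.8 ± 15.4 and 189 ± 68.8 FPKM (SD, n = 4 each; two-sided exact permutation test, p = 0.0286). The log2 fold change was 1.96 (edgeR, SE 0.28, 95% confidence interval 1.34 to 2.58, adjusted p = 0.00134), and it ranged from 1.80 to 2.24 over 16 alternatives, all past the threshold.

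*Irs2*, an adaptor of the insulin receptor whose gene is restrained by insulin and active in a fast, had 23.0, 11.5, 20.8 and 20.5 FPKM in controls and 11.6, 20.5, 19.1 and 22.6 FPKM in *Usp39*-HKO livers. In each genotype 1 liver, control 2 and *Usp39*-HKO 1, stood well below the other 3. The log2 fold change was -0.28 with a 95% confidence interval from -0.75 to 0.18 (edgeR, adjusted p = 0.375), an interval that holds 0 as well as a fall of the size seen for *Pck1*.

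*Foxo1*, the forkhead factor that insulin keeps out of the nucleus, had 8.40, 6.74, 7.35 and 8.15 FPKM in controls and 10.5, 5.50, 5.13 and 6.11 FPKM in *Usp39*-HKO livers. *Usp39*-HKO 1 was the highest of all 8 livers and the other 3 were the lowest. With all livers the log2 fold change was -0.39 (edgeR, SE 0.22, 95% confidence interval -0.87 to 0.10, adjusted p = 0.239), and without *Usp39*-HKO 1 it was -0.70 (edgeR, adjusted p = 0.00112), so that 1 liver decided the call.

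*Slc2a2*, the main glucose transporter of the hepatocyte membrane, had 74.0, 63.4, 72.1 and 76.5 FPKM in controls and 63.3, 85.2, 68.7 and 98.4 FPKM in *Usp39*-HKO livers. The lowest and the highest liver were both *Usp39*-HKO, and the genotypes overlapped. Its log2 fold change was -0.10 (edgeR, SE 0.13, 95% confidence interval -0.38 to 0.17, adjusted p = 0.599). The sign depended on scaling, with 0.14 in edgeR without scaling factors (adjusted p = 0.477), where the median over all tested genes was 0.237.

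**Figure D2:**
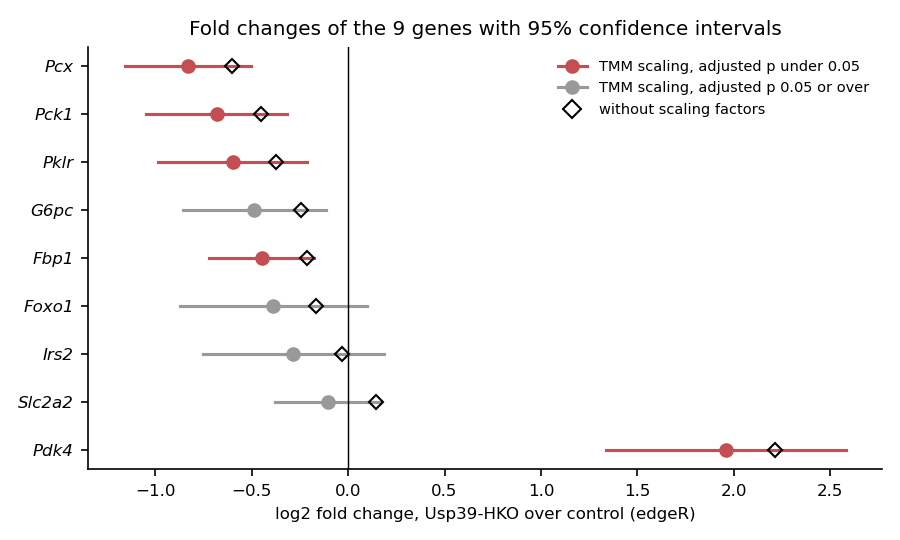
Log2 fold changes of the 9 genes, Usp39-HKO over control, from edgeR with TMM scaling (circles; lines, 95% confidence intervals; red, adjusted p under 0.05; grey, 0.05 or over) and without scaling factors (open diamonds). Without scaling, each value was shifted to the right, Slc2a2 moved from -0.10 to 0.14, and the other 8 genes stayed on their side of 0.

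Scaling between livers mattered for all small differences. TMM factors, which correct for RNA composition, ran from 0.911 to 0.940 among controls and reached 1.01 to 1.19 after deletion. Without them the median log2 fold change over all tested genes was 0.237 and calls were split into 3525 higher and 696 lower, against 1561 and 1664 with them. Calls among the 9 genes were then 1 higher (*Pdk4*) and 2 lower (*Pck1* and *Pcx*). With and without the factors, 8 of the 9 genes lay below the median of all tested genes, *Pdk4* being the exception.

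Ordered by mean FPKM, which is per length, the controls ran *Pck1*, *Fbp1*, *G6pc*, *Pcx*, *Slc2a2*, *Pdk4*, *Irs2*, *Pklr*, *Foxo1*. Among neighbours in this order the ranges over 4 livers overlapped for *G6pc* (318 to 449 FPKM) and *Pcx* (270.4 to 327) and for *Irs2* and *Pklr*. In *Usp39*-HKO livers the order was the same except that *Pdk4* (112 to 255 FPKM) stood above *Slc2a2* (63.3 to 98.4). There the ranges of *Pdk4* and *Pcx* (163 to 215 FPKM) overlapped, as did those of *Irs2* and *Pklr*.

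The 9 genes did not vary together from liver to liver. After the mean of each genotype was subtracted from log2 CPM, Pearson r over the 8 livers was above 0.7 in 5 of 36 pairs and below -0.7 in 3, with a median of -0.089. *Pck1* varied with *Pcx* (r = 0.82) and *Fbp1* (r = 0.818), and *Fbp1* with *Pcx* (r = 0.732). *G6pc* did not share this pattern (r = -0.0155 with *Pck1*) and varied with *Irs2* (r = 0.832), and *Irs2* in turn with *Slc2a2* (r = 0.765). *Slc2a2* ran against *Pklr* (r = -0.875) and *Pcx* (r = -0.744), and *Irs2* against *Pcx* (r = -0.717). These values are descriptions over 8 livers whose genes share libraries and scaling factors, and the share of all gene pairs beyond 0.7 was not computed. In both *G6pc* and *Irs2*, control 2 and *Usp39*-HKO 1 were the lowest of their genotype. The other livers spanned only 19.1 to 23.0 FPKM of *Irs2*, and how far r depends on those low livers was not tested. The genes most like *Pck1* by the same measure, among all 14340, were *2810459M11Rik* (r = 0.988), *Oaf* (r = 0.956) and *Aldh9a1* (r = 0.955). With 8 livers, a search over so many genes can give such high values by itself, and shared regulation was not tested.

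**Figure D3:**
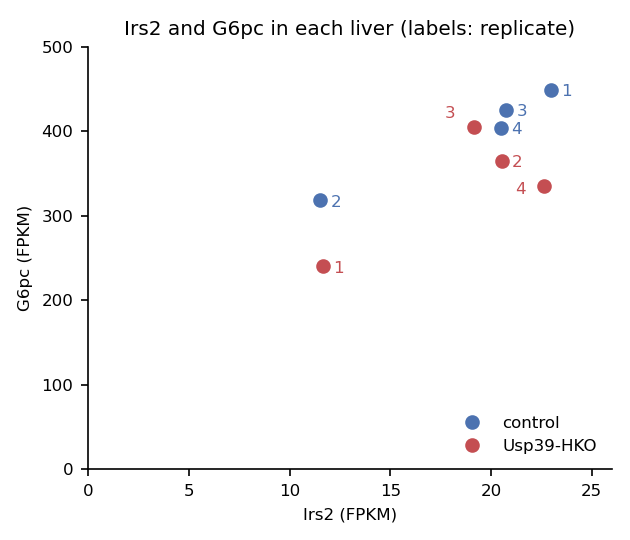
FPKM of G6pc (vertical axis, from 0) against FPKM of Irs2 (horizontal axis, from 0) in each liver, labelled by replicate (blue, 4 control; red, 4 Usp39-HKO). Control 2 and Usp39-HKO 1, with 11.5 and 11.6 FPKM of Irs2, had the lowest G6pc of their genotype, and the other 6 livers lay between 19.1 and 23.0 FPKM of Irs2.

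The surrounding pathways were described with 7 further lists that together held 135 genes, of which 128 were tested. Of these, 16 were called higher and 27 lower, which is 33.6% of those tested against 22.5% of all tested genes, and the median log2 fold change was -0.18. Without scaling factors the split turned to 25 higher and 16 lower. In 37 of the 128 genes (28.9%) the genotypes did not overlap in FPKM, a share near the 28.7% of all tested genes.

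Among the other gluconeogenic enzymes and carriers of substrate, 3 of 29 tested genes were called higher and 2 lower, with a median log2 fold change of -0.17. Their share called, 17.2%, was below the 22.5% of all tested genes. *Slc37a4*, the transporter that brings glucose-6-phosphate to *G6pc* in the endoplasmic reticulum, had 115 to 144 FPKM in controls against 67.9 to 122 in *Usp39*-HKO livers and fell by 0.83 on the log2 scale (edgeR, adjusted p = 0.01), although *Usp39*-HKO 1 overlapped the controls. *Aqp9*, a channel for glycerol entry, fell by 0.48 (edgeR, adjusted p = 0.00992), from 137 to 151 FPKM in controls to 111 to 136 in *Usp39*-HKO livers with no overlap, but not without scaling factors (edgeR, adjusted p = 0.104). *Pck2*, the mitochondrial form of phosphoenolpyruvate carboxykinase, rose by 0.82 (edgeR, adjusted p = 0.0115) from 0.795 to 0.943 FPKM in controls to 1.13 to 2.37, a level far below that of *Pck1*. The lactate and pyruvate carrier *Slc16a1* rose by 0.60 (edgeR, adjusted p = 0.047), with overlap, and this call was lost without any 1 of 6 livers, namely control 1, 3 or 4 or *Usp39*-HKO 2, 3 or 4, where the adjusted p ran up to 0.131 in edgeR.

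Of the genes of glycolytic entry and its control, 4 of 17 were called higher and 4 lower, with a median of -0.10. *Gckr* fell by 0.82 (edgeR, adjusted p = 0.00324) from 26.2 to 32.2 FPKM in controls to 15.7 to 24.1 with no overlap. *Mlxipl*, also known as ChREBP, the glucose-responsive factor that activates *Pklr*, fell by 0.52 (edgeR, adjusted p = 0.0113) with control and *Usp39*-HKO ranges of 17.4 to 21.9 and 13.9 to 17.8 FPKM that overlapped, and without scaling factors the fall was 0.29 and not called (edgeR, adjusted p = 0.0701). *Pfkp*, the platelet form of phosphofructokinase, rose by 1.49 (edgeR, adjusted p = 0.00149) from 0.423 to 0.708 FPKM in controls to 1.36 to 2.84, and *Pfkfb4*, which makes and removes fructose-2,6-bisphosphate, rose by 1.20 (edgeR, adjusted p = 0.0151) from levels below 1 FPKM in every liver. Cholangiocyte, stellate cell and macrophage markers rose in the same livers, and their part in the rises of such low genes was not tested.

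The log2 ratio of *Fbp1* to *Pfkl*, the liver phosphofructokinase, within a liver does not depend on scaling between livers, and it had means of 7.02 ± 0.20 (control) and 7.01 ± 0.28 (*Usp39*-HKO; SD, n = 4 each).

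In the pyruvate dehydrogenase list 1 of 11 genes was called higher and 3 lower, with a median of -0.071. *Pdk1*, another of the kinases, fell by 1.03 (edgeR, adjusted p = 0.00135), from 10.4 to 14.2 FPKM in controls to 6.35 to 8.88 in *Usp39*-HKO livers. *Pdk2*, named outside the rule for naming genes after its values were seen, fell by 0.36 (edgeR, adjusted p = 0.0387), but its ranges of 34.9 to 44.3 FPKM in controls and 33.9 to 41.8 after deletion overlapped. The call of *Pdk2* was lost in 10 of 16 alternatives, without scaling factors (-0.12, adjusted p = 0.454 in edgeR) and without control 1, 3 or 4 or *Usp39*-HKO 1, 3 or 4 (edgeR, adjusted p of 0.0632, 0.124, 0.106, 0.0786, 0.105 and 0.109, in that order) among them. *Pdk3* rose by 1.12 (edgeR, adjusted p = 0.0434) from 0.276 to 0.680 FPKM in controls to 0.964 to 2.39, and this call was lost without any control or without *Usp39*-HKO 3 or 4, with 0.78 and an adjusted p of 0.134 in edgeR without *Usp39*-HKO 4. *Pdpr*, a regulatory subunit of the phosphatase that reactivates the complex, fell by 0.67 (edgeR, adjusted p = 0.00163) with no overlap.

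Glycogen metabolism had 10 called genes of 20, 3 higher and 7 lower, with a median of -0.22. *Ppp1r3b*, the liver subunit that targets protein phosphatase to glycogen, fell from 28.8, 28.0, 28.5 and 35.6 FPKM in controls to 15.4, 10.3, 15.2 and 10.4 in *Usp39*-HKO livers, by 1.46 on the log2 scale (edgeR, adjusted p = 0.000688). *Ppp1r3c*, a second subunit of this kind, fell by 1.33 (edgeR, adjusted p = 0.0154), with controls at 19.7 to 49.7 FPKM and *Usp39*-HKO livers at 6.53 to 20.6, which overlapped, and it was not called in limma on log2(FPKM + 1) (-1.08, adjusted p = 0.0534) or log2(FPKM + 0.1) (-1.14, adjusted p = 0.0569). Liver glycogen phosphorylase (*Pygl*) fell by 0.61 (edgeR, adjusted p = 0.00216), from 39.1 to 42.2 FPKM to 30.8 to 32.1, whereas the brain form *Pygb* rose by 0.98 (edgeR, adjusted p = 0.00963), from 2.73 to 3.71 FPKM to 4.17 to 10.2. *Pgm1* as the deposited table names it, a phosphoglucomutase at chr5:64092950-64128351 (ENSMUSG00000029171), rose by 0.77 (edgeR, adjusted p = 0.00321). Its level was low, at 4.16 to 4.60 FPKM in controls and 6.76 to 11.1 in *Usp39*-HKO livers. The more abundant *Pgm2* of that table (ENSMUSG00000025791), named outside the rule after its values were seen, went the other way. *Pgm2* fell by 0.61 (edgeR, adjusted p = 0.0106), from 96.2 to 109.7 FPKM in controls to 59.35 to 91.5, with no overlap. Liver glycogen synthase (*Gys2*) had a log2 fold change of -0.17 (edgeR, adjusted p = 0.559), and without *Usp39*-HKO 2, which had 158 FPKM against 83.2 to 92.3 in the other 3, it was -0.42 (edgeR, adjusted p = 0.0287).

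**Figure D4:**
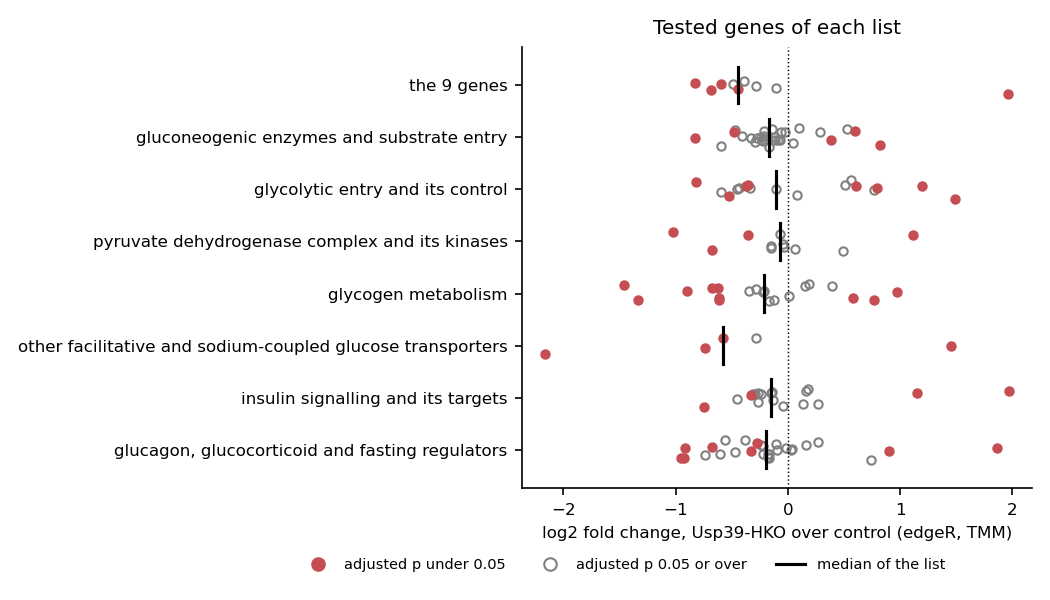
Log2 fold changes, Usp39-HKO over control, of the tested genes of each list (points, spread vertically for visibility; red, adjusted p under 0.05 in edgeR with TMM scaling; open, 0.05 or over; black bar, list median). The 9 genes have a median of -0.45 with Pdk4 alone at 1.96, and the medians of the 7 other lists lie between -0.58 and -0.071.

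Of 11 other glucose transporters 5 passed the filter on low values, and 1 of these was called higher and 3 lower. The fructose transporter *Slc2a5* fell by 2.16 (edgeR, adjusted p = 0.00107), from 1.22 to 2.69 FPKM in controls to 0.431 to 0.807, and *Slc2a9*, a urate and glucose carrier, fell by 0.74 (edgeR, adjusted p = 0.00119) from 9.41 to 11.4 FPKM to 6.22 to 8.14. The sodium-coupled *Slc5a1* rose by 1.45 (edgeR, adjusted p = 0.00659) from 0.351 to 0.467 FPKM to 0.727 to 2.21. The log2 ratio of *Slc2a2* to *Slc2a1*, the widely expressed transporter, overlapped between genotypes, with a control mean of 3.10 ± 0.23 and a *Usp39*-HKO mean of 3.27 ± 0.30 (SD, n = 4 each).

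Insulin signalling had 2 genes called higher and 2 lower among 18 tested of 19, with a median of -0.15. That share, 22.2%, was near the 22.5% of all tested genes. The insulin receptor (*Insr*) fell by 0.75 (edgeR, adjusted p = 0.00313), with 24.3, 18.6, 25.2 and 23.1 FPKM in controls and 15.6, 18.2, 13.6 and 16.3 in *Usp39*-HKO livers, which did not overlap. *Trib3*, a pseudokinase that binds Akt, rose by 1.97 (edgeR, adjusted p = 0.00126), with 3.54, 5.41, 7.89 and 6.82 FPKM in controls and 19.8, 17.8, 40.1 and 31.6 in *Usp39*-HKO livers. *Grb10*, an adaptor that inhibits the insulin receptor, rose by 1.15 (edgeR, adjusted p = 0.00401) from 0.995 to 1.36 FPKM to 2.21 to 4.96. *Akt2*, the main Akt kinase of insulin action in liver, fell by 0.33 (edgeR, adjusted p = 0.0265), but its ranges overlapped. The call of *Akt2* was lost in 9 of 16 alternatives. Among them was the fit without scaling factors (-0.10, adjusted p = 0.452 in edgeR). It was also lost without control 2, 3 or 4 or *Usp39*-HKO 2, 3 or 4, where the adjusted p ran up to 0.0837 in edgeR. *Igfbp1*, a secreted target of *Foxo1*, had a log2 fold change of 0.16 (edgeR, 95% confidence interval -0.18 to 0.50, adjusted p = 0.497).

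Among regulators of the fasting response, 2 of 28 genes were called higher and 6 lower, with a median of -0.20. Called genes made up 28.6% of this list, against 22.5% of all tested genes. The glucagon receptor (*Gcgr*) fell by 0.92 (edgeR, adjusted p = 0.00166), with 96.5, 119, 101 and 104 FPKM in controls and 64.2, 71.8, 70.5 and 52.7 in *Usp39*-HKO livers, which did not overlap. Phosphodiesterases, which break down cAMP, moved in opposite directions: *Pde3b* fell by 0.95 (edgeR, adjusted p = 0.000922), from 13.3 to 16.3 FPKM to 7.64 to 11.1, and *Pde4d* rose by 0.90 (edgeR, adjusted p = 0.00114), from 1.18 to 1.54 FPKM to 2.56 to 3.38. *Nr1d1*, a circadian repressor also known as Rev-erb alpha, rose by 1.87 (edgeR, adjusted p = 0.00122), with 5.88, 10.7, 6.81 and 5.65 FPKM in controls and 45.3, 23.0, 23.6 and 32.1 in *Usp39*-HKO livers. Of its exon bases 8.55% overlap *Thra* on the opposite strand. The time of day at which livers were taken is not given in the sources used here.

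The coactivator *Ppargc1a*, which drives *Pck1* and *G6pc* in a fast, had 12.0, 5.66, 10.3 and 7.11 FPKM in controls and 11.8, 7.11, 3.86 and 6.62 in *Usp39*-HKO livers, with a log2 fold change of -0.47 (edgeR, adjusted p = 0.324). Without *Usp39*-HKO 1 it was -0.83 (edgeR, adjusted p = 0.0422). *Hnf4a*, a hepatocyte factor that binds both promoters, had a log2 fold change of -0.23 (edgeR, 95% confidence interval -0.54 to 0.09, adjusted p = 0.292).

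**Figure D5:**
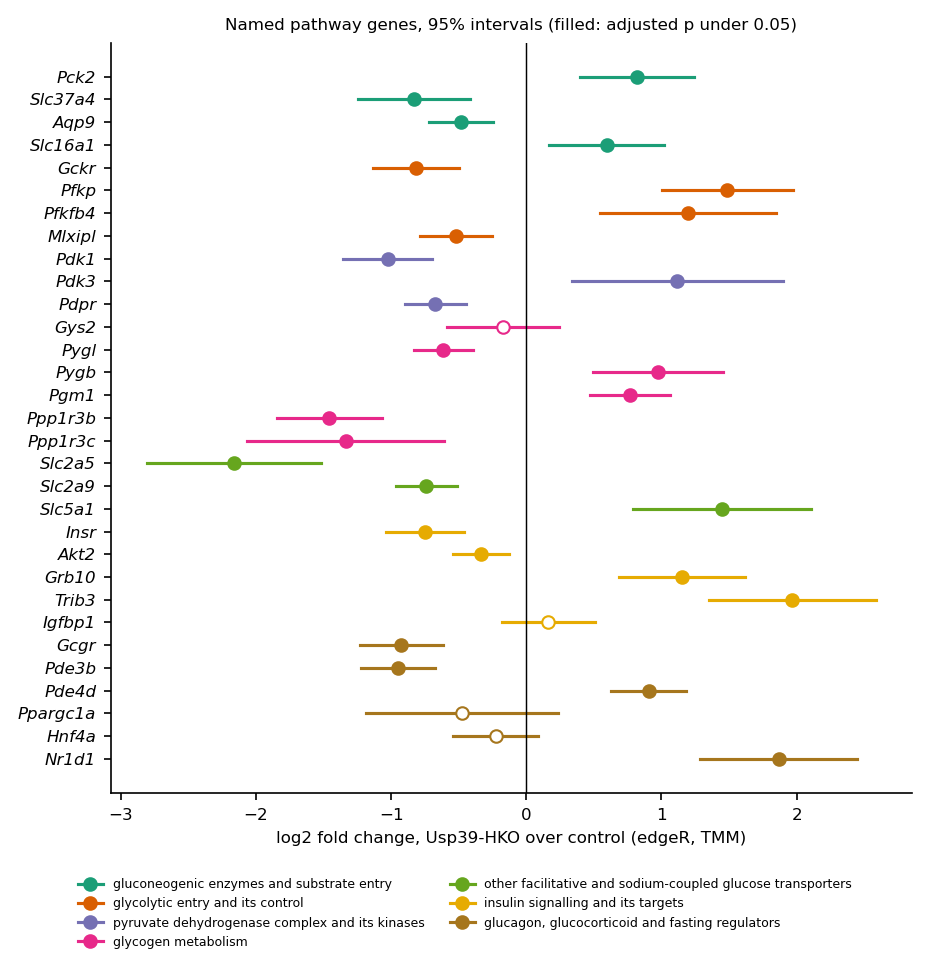
Log2 fold changes, Usp39-HKO over control, of the named genes of the 7 lists in edgeR with TMM scaling (points; lines, 95% confidence intervals; filled, adjusted p under 0.05; colour, list). Slc2a5, Ppp1r3b and Ppp1r3c lie farthest to the left, at -2.16, -1.46 and -1.33, and Trib3 and Nr1d1 farthest to the right, at 1.97 and 1.87.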

How the data were processed

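Livers of 4 *Usp39*-HKO mice and 4 control littermates were measured by RNA-seq on an Illumina NovaSeq. The authors aligned reads to mm10 with HISAT2 and deposited raw counts per gene from featureCounts. Trim Galore 0.6.1, FastQC 0.11.9, Picard and DESeq2 are named in the submitters' processing notes. The authors also deposited FPKM, which the counts, exon lengths and totals gave back to within a relative deviation of 1.96e-07. The deposited fold changes, standard errors, statistics and p-values of the authors' own comparison were not used. The annotation release, the strandedness and the treatment of reads mapping to several genes are not given in the sources used here.

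Genes that reached 0.5 FPKM in 4 or more of the 8 livers were tested with edgeR 4.0.16 in R 4.3.3 (TMM factors, quasi-likelihood test, genotype as the only term, Benjamini-Hochberg adjustment). Standard errors were derived from the F statistic. FPKM was compared with two-sided exact permutation tests. The steps were tested on simulated data in which few genes changed, equally in both directions. That test does not cover a shift in RNA composition between genotypes. DESeq2 1.42.0, limma 3.58.1 on log2(FPKM + 1) and log2(FPKM + 0.1), other scaling and filters, and fits without each liver were alternatives. Of the gene identifiers, 55144 (99.6%) were in GENCODE vM21.

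The 9 genes and all lists were chosen with earlier results of these data known. Named genes were the 9 genes, up to 2 called genes per direction and list with the largest fold change, 11 genes named whatever their values (*Pck2*, *Slc37a4*, *Ppargc1a*, *Gcgr*, *Insr*, *Gys2*, *Pygl*, *Mlxipl*, *Hnf4a*, *Igfbp1* and 1 that is not reported here) and the 3 genes most like *Pck1*. The labels give 1 sample per mouse.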

Additional observations from a re-analysis of the deposited data

Results flagged for a closer look

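In 7 of 116 groups of 4 livers, 1 liver lay far from the other 3, beyond Dixon's 95% critical value, a limit that about 1 group in 20 passes by chance. *Pdk1* was at 8.88 FPKM in *Usp39*-HKO 1 against 6.35 to 6.73 in the other *Usp39*-HKO livers, and *Pdk3* was at 2.39 FPKM in *Usp39*-HKO 4 against 0.964 to 1.06. *Ppp1r3b* was at 35.6 FPKM in control 4 against 28.0 to 28.8 in the other controls, and *Gys2* was at 158 FPKM in *Usp39*-HKO 2 against 83.2 to 92.3. The log2 ratio of *Fbp1* to *Pfkl* was 6.72 in control 2 and between 7.10 and 7.17 in the other controls. Summed pancreatic acinar markers were high in control 4, at 577 FPKM against 2.92 to 3.52 in the other controls. Islet markers were flagged at 0.118 FPKM in control 4 against 0 in the other 7 livers. That islet value rests on 1 count each of *Ins2* and *Pdx1*, below the floor of 3 counts.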

How the results depend on the processing

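Each named gene was refitted under up to 16 alternatives, and 27 of 44 genes kept direction and side of the threshold in all. Of 687 fits, 62 changed side and 9 changed sign. *Pck1*, *Pcx* and *Pdk4* stayed called throughout. Of the 9 genes 5 were called, and 3 were in edgeR without scaling factors and in limma on log2(FPKM + 1) or log2(FPKM + 0.1). Those called lower went from 4 to 2, 2 and 2 there. Without 1 liver at a time 3 to 6 were called and 2 to 5 were lower, the lowest numbers, 3 and 2, arising without control 1, control 4 or *Usp39*-HKO 4. For the 7 lists, 43 called genes became 28 of 95 with a mean FPKM of at least 5 and 30 to 50 without 1 liver. The 16 higher genes became 25 without scaling factors, 9 with that filter and 11 to 17 without 1 liver. The 27 lower genes became 16 without scaling factors, 14 in both limma fits and 19 to 34 without 1 liver. Over all genes 3225 calls became 1595 of 6672 with that filter and 1917 to 3321 without 1 liver, with 1917 without control 3, 2038 without control 4 and 1917 without *Usp39*-HKO 4.

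In edgeR without scaling factors and in limma with a pseudocount of 1 and 0.1, log2 fold changes turned to 0.14, 0.12 and 0.12 for *Slc2a2*, 0.062, 0.011 and 0.011 for *Gys2*, and 0.0097, 0.020 and 0.021 for *Hnf4a*. These alternatives leave out the scaling that shifts all genes. The FPKM difference of *Slc2a2* (7.40) became -5.52 after division by TMM factors. That of *Irs2* (-0.458) became -2.92 without control 2, 0.884 without control 1, 0.148 without control 3, 0.062 without control 4 and 1.82 without *Usp39*-HKO 1. Fits without 1 liver rest on 7 livers, and other causes of lost calls were not tested. limma on TMM-scaled FPKM was added after seeing the data. No paired analysis was possible: the controls were littermates, but the litter of each mouse is not given in the sources used here.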

Other observations

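*Gapdh*, a glycolytic and gluconeogenic enzyme named here after its values were seen, was listed at only 3.04 to 5.08 FPKM over the 8 livers. *Gapdh* has many near-identical copies in the genome, and how reads mapping to several genes were treated is not given. Its value is therefore uncertain, and the part of such reads in it was not tested.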
